A study of Mus musculus with 12 samples.

Results

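Genes for methylation of lysine 9 on histone H3 (H3K9) and for the proteins that read this mark were examined in female germ cells of the mouse embryo. The members were taken by symbol from the deposited expression table. They were the methyltransferase genes Setdb1, Ehmt1, Ehmt2, Suv39h1 and Suv39h2, the genes of their cofactors Trim28 and Atf7ip, and the heterochromatin protein genes Cbx1 and Cbx5. All 9 were among the 12516 genes of the table, and all 9 passed the filter on low values that left 12432 genes for testing. Each of the 12 samples was the Oct4+ germ cells sorted from 1 female embryo at embryonic day 13.5. All embryos, controls included, had the Gulo-/- genotype and a C57BL/6 background. Without the enzyme GULO mice cannot make vitamin C, so both groups depended on what the mother obtained from the diet. In the supplied group (6 embryos) the mothers received vitamin C at physiological levels, and in the withdrawn group (6 embryos) it was taken away over the first 2 weeks of gestation. The comparison asks how maternal vitamin C relates to RNA levels in the embryonic germline.

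Methylation of H3K9 marks silent chromatin. SETDB1 deposits trimethylation at retroelements and some genes, where it is brought by TRIM28, itself bound to zinc finger proteins with a KRAB domain. ATF7IP binds SETDB1, protects it from degradation and keeps it in the nucleus. EHMT1 (also named GLP) and EHMT2 (also named G9a) form a heteromer that deposits mono- and dimethylation in euchromatin. SUV39H1 and SUV39H2 trimethylate H3K9 at pericentromeric repeats, and HP1 proteins such as CBX1 (HP1 beta) and CBX5 (HP1 alpha) bind the methylated lysine through a chromodomain. In primordial germ cells dimethylated H3K9 falls during reprogramming, while SETDB1 contributes to silencing of retroelements. Several enzymes that remove methyl groups from H3K9 are dioxygenases whose activity vitamin C supports.

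Of the 9 genes, Ehmt1 fell in withdrawn embryos and no other passed the test. The count was 1 lower and 0 higher with limma at an adjusted p below 0.05. Over all genes tested, 7.75% were called lower and 6.22% higher, so the members' count was near the background. The balance over all genes depended on the scaling, with 773 higher and 964 lower as reported. It turned to 904 higher and 795 lower after median centring and to 927 and 836 after removal of the length and GC trend. With quantile normalization it did not turn, at 746 higher and 804 lower. At an unadjusted p below 0.05 there were 3 lower members (Ehmt1, Ehmt2 and Atf7ip) and 2 higher ones (Trim28 and Cbx1), where 16.7% of all genes were lower and 13.5% higher at that threshold. The exact permutation test per gene, adjusted over all genes, called 1 lower and 0 higher, beside 2.34% and 2.15% of all genes. The median log2 fold change of the 9 members, withdrawn minus supplied, was -0.07, beside -0.01 over all genes tested. Libraries had correlations of at least 0.987 across genes, and the sequencing depth of each is unknown. The titles of the samples carry a number from 1 to 4, shared by 2 embryos of a diet for numbers 1 and 4. The labels do not say what the number stands for. With embryos of the same number and diet tied through an estimated correlation 886 genes of the whole table were called, or 7.13%, and with them averaged 298, or 2.4%. Without the 4 embryos of number 1 there were 729, or 5.86%, and Ehmt1 was still called (limma adjusted p = 0.0326). Without the 4 embryos of number 4 there were 49, or 0.394%, and none of the 9.

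**Figure D1:**
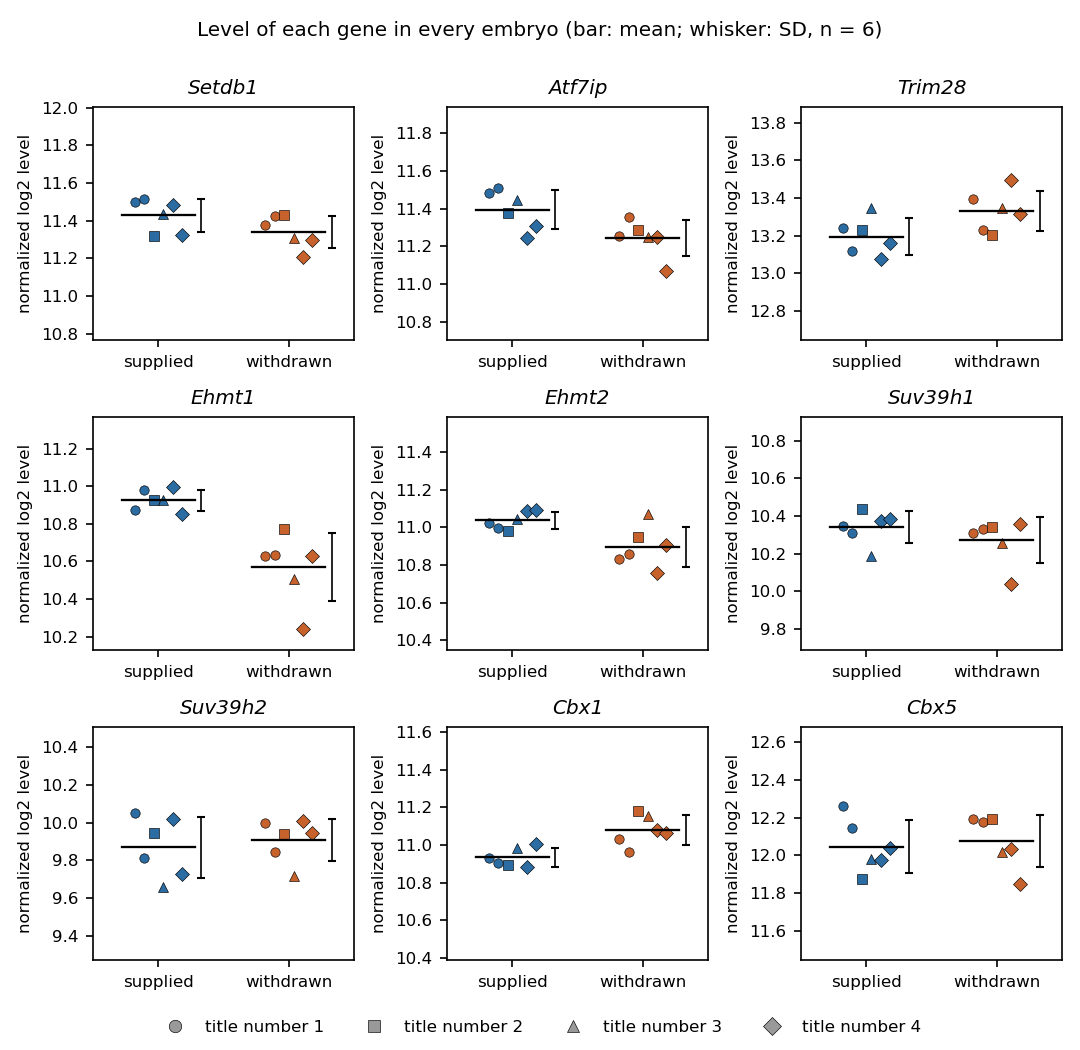
Normalized log2 level of each of the 9 genes (vertical axis, the same span in every panel) in the 6 supplied and 6 withdrawn embryos, with 1 point per embryo, its shape giving the number in the sample title, a bar at the mean and a whisker of 1 SD. Ehmt1 is the 1 panel in which the groups do not overlap, with withdrawn embryos between 10.24 and 10.77 and supplied embryos between 10.85 and 10.995.

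Ehmt1 encodes GLP, the partner of G9a in deposition of dimethylated H3K9. Its normalized log2 level ran from 10.85 through a median of 10.93 to 10.995 in supplied embryos. In withdrawn embryos it ran from 10.24 through a median of 10.63 to 10.77. All 6 withdrawn embryos lay below all 6 supplied embryos, which was so in one direction or the other for 4.49% of all genes tested. The supplied mean was 10.93 ± 0.06 (SD, n = 6) and the withdrawn mean 10.57 ± 0.18 (SD, n = 6). The log2 fold change was -0.36 (SE 0.07, 95% interval -0.51 to -0.20, limma adjusted p = 0.00525), or 1.28-fold lower. This change was larger in size than that of 96.4% of all genes tested, and the gene ranked 203 by p. The exact permutation test gave p = 0.00216, the smallest that 924 arrangements of the embryos allow (adjusted p = 0.0482). That p is reached whenever the groups do not overlap, so this test and the lack of overlap are the same observation.

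Withdrawn embryos also differed more among themselves in Ehmt1 than supplied ones. Withdrawn replicate 5 was lowest at 10.24, and without it the log2 fold change was -0.29 (limma adjusted p = 0.00742). The same embryo was also the lowest of the withdrawn group for Setdb1, Ehmt2 and Suv39h1 and the highest for Trim28 and Suv39h2. The gene was called in 26 of 27 alternative analyses. The exception left out the 4 embryos of title number 4, where the value was -0.29 (adjusted p = 0.0737) with the direction kept. With embryos that share a title number and a diet averaged, the value was -0.34 (adjusted p = 0.0375). The removal of each library's trend on transcript length and GC content gave -0.31 (adjusted p = 0.00480).

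**Figure D2:**
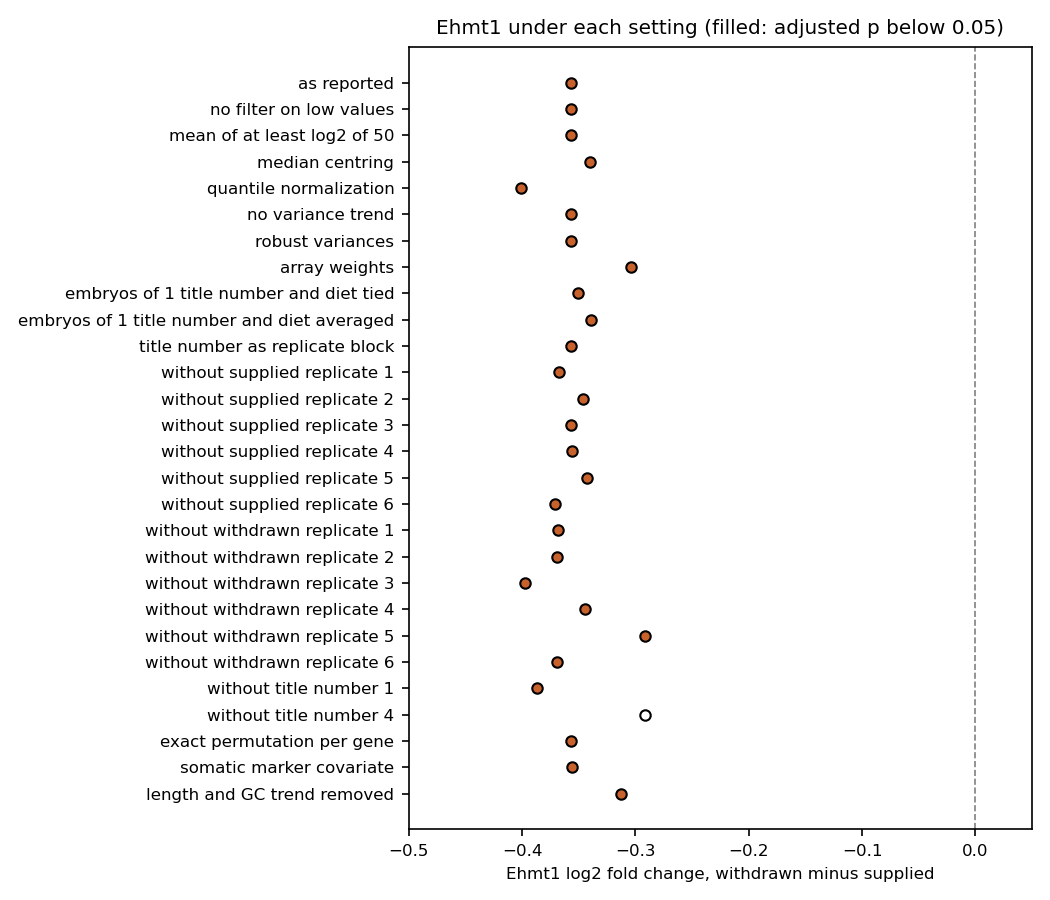
Log2 fold change of Ehmt1, withdrawn minus supplied (horizontal axis), as reported and under 27 alternatives (vertical axis), with filled points where the adjusted p is below 0.05. Values run from -0.40 to -0.29, and the 1 open point is the analysis without the 4 embryos of title number 4.

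Ehmt2 encodes G9a, the partner of GLP in the same heteromer. Its level ran from 10.98 through a median of 11.03 to 11.09 in supplied embryos. In withdrawn embryos it ran from 10.76 through a median of 10.88 to 11.07. Of the 6 withdrawn embryos, 5 lay below the lowest supplied embryo, and withdrawn replicate 4 lay within the supplied range. The log2 fold change was -0.14 (SE 0.06, 95% interval -0.27 to -0.01) and did not pass over all genes (limma adjusted p = 0.131). It was -0.084 with the length and GC trend removed and -0.083 without title number 4. In no alternative was Ehmt2 called, with adjusted p values from 0.0561 to 0.593.

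The level of Ehmt1 relative to Ehmt2 was compared within each embryo, since both proteins work in one complex. The log2 ratio of Ehmt1 to Ehmt2 ran from -0.24 to -0.02 in supplied and from -0.56 to -0.17 in withdrawn embryos, and the ranges overlapped. Its mean went from -0.11 ± 0.08 to -0.33 ± 0.17 (SD, n = 6 each), a difference of -0.22. All 6 withdrawn embryos lay below the supplied mean. The exact two-sided permutation test gave p = 0.0108, and p = 0.0541 adjusted over the 5 pairs of members compared, so the difference did not pass. Of 16 alternatives 13 did not pass, among them averaged embryos (exact permutation adjusted p = 0.143). There the smallest exact p is 0.0286, so after adjustment over 5 pairs this ratio could not pass alone. The same limit holds without title number 1 or 4. With the title number as a replicate block only 144 arrangements exist, so there too this ratio could not pass alone after adjustment over 5 pairs. The difference passed without supplied replicate 6 (exact permutation adjusted p = 0.0325), withdrawn replicate 1 (adjusted p = 0.0433) or withdrawn replicate 3 (adjusted p = 0.0433).

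Windows of 300 bases around the start sites of both genes are printed here, since these genes encode partners of one complex and 1 of them was called. They are from RefSeq, build GRCm38.p6, and hold 250 bases before the start and 50 after it, 5′ to 3′ on the gene's strand, with each CpG in capitals. The expression values rest on build mm9, so the windows serve as sequence only. The Ehmt1 window lies at chr2:24919560-24919859 on the minus strand and the Ehmt2 window, the first of its 2 listed starts, at chr17:34898224-34898523 on the plus strand.
Ehmt1: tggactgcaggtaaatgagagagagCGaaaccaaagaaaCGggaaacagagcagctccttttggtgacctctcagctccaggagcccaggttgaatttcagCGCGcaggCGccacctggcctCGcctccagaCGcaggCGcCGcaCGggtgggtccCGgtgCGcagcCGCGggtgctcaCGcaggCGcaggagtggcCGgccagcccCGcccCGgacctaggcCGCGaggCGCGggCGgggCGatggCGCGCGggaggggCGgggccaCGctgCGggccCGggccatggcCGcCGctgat
Ehmt2: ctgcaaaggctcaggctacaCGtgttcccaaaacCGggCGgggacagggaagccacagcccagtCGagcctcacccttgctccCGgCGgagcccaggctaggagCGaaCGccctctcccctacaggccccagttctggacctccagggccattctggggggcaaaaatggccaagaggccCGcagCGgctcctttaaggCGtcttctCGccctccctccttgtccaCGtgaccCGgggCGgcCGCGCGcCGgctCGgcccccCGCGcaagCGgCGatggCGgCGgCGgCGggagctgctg
The Ehmt1 window holds 34 CpGs and the Ehmt2 window 28, where the median of all 32851 windows in the table is 7. Of all windows, 93.0% hold no more CpGs than that of Ehmt1 and 87.1% no more than that of Ehmt2. All 9 members had a window, and the first listed one held from 15 to 34 CpGs. No methylation was measured in these samples.

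The genes of the SETDB1 complex did not move in a common direction. Setdb1, the methyltransferase itself, ran from 11.32 through a median of 11.46 to 11.51 in supplied embryos. In withdrawn embryos it ran from 11.21 through a median of 11.34 to 11.43, with overlap. Its log2 fold change was -0.09 (SE 0.06, 95% interval -0.22 to 0.04, limma adjusted p = 0.357), and it was -0.050 with the length and GC trend removed and -0.058 without title number 4.

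Atf7ip, the gene of its stabilizing partner, ran from 11.25 through a median of 11.41 to 11.51 in supplied and from 11.07 through a median of 11.25 to 11.36 in withdrawn embryos. All 6 withdrawn embryos lay below the supplied mean, but the groups overlapped. The log2 fold change was -0.15 (SE 0.07, limma adjusted p = 0.124). With quantile normalization it was -0.20 and was called (adjusted p = 0.0321), and over all 27 alternatives its adjusted p ran from 0.0321 to 0.368. Removal of the length and GC trend gave -0.08.

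Trim28, the scaffold that brings SETDB1 to its targets, had the opposite sign. It ran from 13.08 through a median of 13.20 to 13.35 in supplied and from 13.20 through a median of 13.33 to 13.50 in withdrawn embryos. All 6 withdrawn embryos lay above the supplied mean, with overlap between the groups. Its log2 fold change was 0.14 (SE 0.06, 95% interval 0.0043 to 0.27, limma adjusted p = 0.153). It was 0.04 with quantile normalization and 0.06 without title number 4. In no alternative was Trim28 called.

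The log2 ratio of Setdb1 to Trim28 went from -1.77 ± 0.14 to -1.99 ± 0.19 (SD, n = 6 each), a difference of -0.23. All 6 withdrawn embryos lay below the supplied mean of this ratio. The difference had an exact permutation p = 0.0411 and did not pass over the 5 pairs (adjusted p = 0.103), but passed in 1 of 16 alternatives, without withdrawn replicate 3 (exact permutation adjusted p = 0.0487). Without title number 4 the difference was -0.12. The ratio of Setdb1 to Atf7ip differed by 0.06 (exact permutation adjusted p = 0.297).

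**Figure D3:**
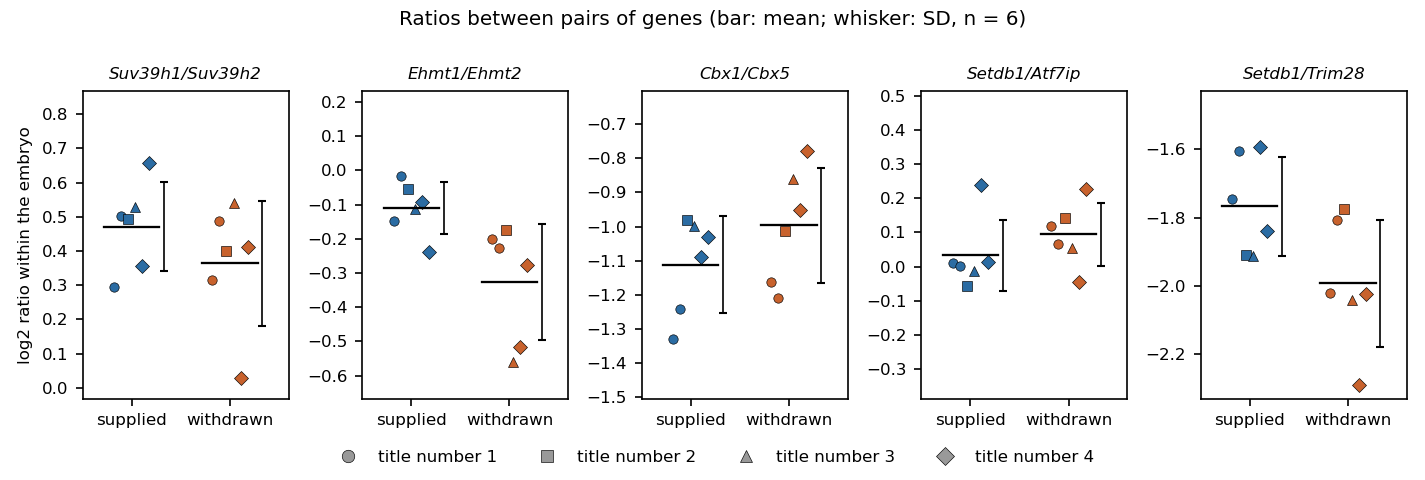
Log2 ratio between 2 genes within each embryo (vertical axis, the same span in every panel) for 5 pairs, in supplied and withdrawn embryos, with 1 point per embryo, a bar at the mean and a whisker of 1 SD. The ratio of Ehmt1 to Ehmt2 differs by -0.22 and that of Setdb1 to Trim28 by -0.23, and the groups overlap in all 5 panels.

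The SUV39 genes, whose enzymes act at pericentromeric heterochromatin, differed little between the diets. Suv39h1, which is on the X chromosome, ran from 10.19 through a median of 10.36 to 10.44 in supplied embryos. In withdrawn embryos it ran from 10.04 through a median of 10.32 to 10.36. The log2 fold change was -0.07 (SE 0.07, 95% interval -0.21 to 0.07, limma adjusted p = 0.537). It was -0.021 without withdrawn replicate 5 and -0.0098 without title number 4.

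Its paralog Suv39h2 ran from 9.66 through a median of 9.88 to 10.05 in supplied and from 9.72 through a median of 9.94 to 10.01 in withdrawn embryos. The withdrawn range lay within the supplied one. The log2 fold change was 0.04 (SE 0.08, 95% interval -0.12 to 0.20, limma adjusted p = 0.768), and was -0.0021 without supplied replicate 4. Exons of Suv39h2 overlap those of Dclre1c on the opposite strand in the annotation, and whether counting used strand is not given in the sources used here. Exons of Ehmt1 overlap those of Gm37139 on the same strand. Setdb1, Suv39h1 and Atf7ip have overlaps on the opposite strand, that of Setdb1 with Cers2 among them. Of the overlapping genes, only Dclre1c was in the expression table under the annotated symbol. The log2 ratio of Suv39h1 to Suv39h2 differed by -0.11 (exact permutation adjusted p = 0.297), by -0.041 without withdrawn replicate 5 and by -0.019 without title number 4.

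Both HP1 genes among the members had positive values, and neither passed the test. Cbx1 ran from 10.88 through a median of 10.92 to 11.01 in supplied and from 10.96 through a median of 11.07 to 11.18 in withdrawn embryos. All 6 withdrawn embryos lay above the supplied mean, with overlap between the groups. The value was 0.15 on the log2 scale (SE 0.06, 95% interval 0.02 to 0.27, limma adjusted p = 0.102), and adjusted p values over the alternatives ran from 0.0558 to 0.299.

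Cbx5 ran from 11.87 through a median of 12.01 to 12.26 in supplied and from 11.85 through a median of 12.10 to 12.19 in withdrawn embryos. The ranges were almost the same, and the log2 fold change was 0.03 (SE 0.07, 95% interval -0.12 to 0.18, limma adjusted p = 0.826). Its sign was negative under 3 alternatives, with values of -0.02 with quantile normalization, -0.04 with somatic marker genes as a covariate and -0.0047 without supplied replicate 3. The ratio of Cbx1 to Cbx5 differed by 0.12 (exact permutation adjusted p = 0.297). The third HP1 gene, Cbx3 (HP1 gamma), was at 0.16 (SE 0.07, limma adjusted p = 0.110).

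**Figure D4:**
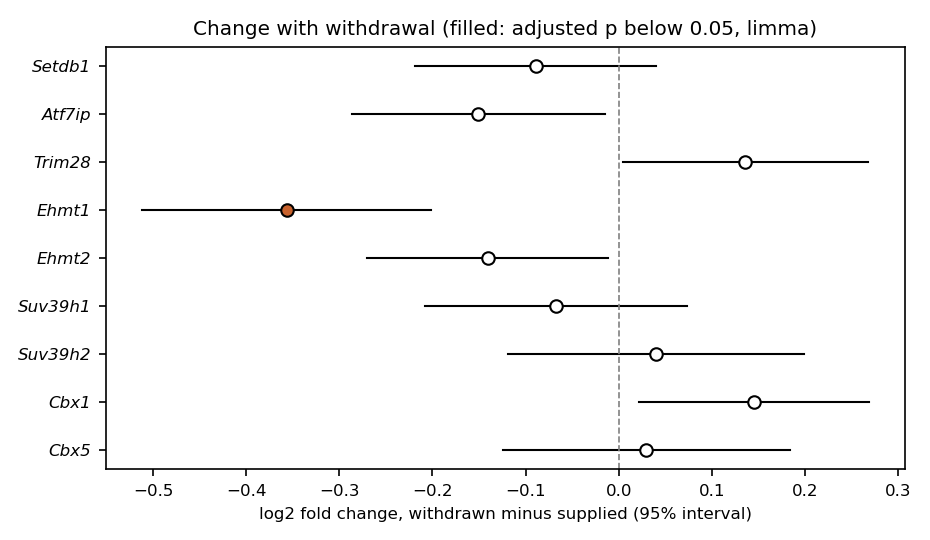
Log2 fold change of each of the 9 genes, withdrawn minus supplied (horizontal axis), with its 95% interval from limma, filled where the adjusted p is below 0.05. Ehmt1 at -0.36 is the 1 filled point, and the other 8 lie between -0.15 and 0.15.

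Levels were compared between members per length, as the log2 level minus log2 of the longest annotated transcript in kilobases, which may not be the isoform expressed. On this scale Trim28 was highest in supplied embryos at 11.50 ± 0.10 (SD, n = 6), followed by Cbx1 at 9.69 ± 0.05. Then came Ehmt2 at 9.03 ± 0.05, Setdb1 at 8.93 ± 0.09, Cbx5 at 8.91 ± 0.14 and Suv39h1 at 8.70 ± 0.09. Atf7ip at 8.39 ± 0.10, Ehmt1 at 8.35 ± 0.06 and Suv39h2 at 7.75 ± 0.16 were the lowest. The gap between neighbours was smaller than the larger of their SDs for Setdb1 and Cbx5 and for Atf7ip and Ehmt1. In withdrawn embryos Ehmt1 was at 7.996 on this scale and Atf7ip at 8.23. Before division by length, all 9 members had mean levels above the median gene, from the 77.6th percentile for Suv39h2 to the 99.4th for Trim28.

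How closely members varied together among embryos of the same diet could not be settled with 12 embryos. With group means taken out, Pearson's r over the 12 embryos ran from -0.71 to 0.72 across the 36 pairs of members, and 0 pairs passed a permutation test within diets after adjustment (lowest adjusted p = 0.139). At an unadjusted permutation p below 0.05 there were 6 pairs. The highest r was that of Cbx5 and Atf7ip (r = 0.72, permutation p = 0.0146), with r = 0.53 without the 2 embryos farthest from the median of Cbx5. The lowest was that of Suv39h1 and Trim28 (r = -0.71, permutation p = 0.0155), with r = -0.06 without the 2 embryos farthest from the median of Suv39h1. For Setdb1 and Ehmt1 r was 0.70 (permutation p = 0.00751) and Spearman's rho 0.69 (permutation p = 0.0223), with r = 0.60 without the 2 embryos farthest from the median of Setdb1. For Ehmt1 and Trim28 r was -0.70 (permutation p = 0.0114) and rho -0.67 (permutation p = 0.0284). That r was -0.38 without the 2 embryos farthest from the median of Ehmt1. The genes whose values followed Ehmt1 most closely on the same scale were Lnp (r = 0.96, rho = 0.85), Arhgef11 (r = 0.95, rho = 0.90), Bcas3 (r = 0.95, rho = 0.93), Specc1 (r = 0.94, rho = 0.90) and Macf1 (r = 0.94, rho = 0.75). They are the highest of all genes tested over 12 embryos and get no p. Without the 2 embryos farthest from the median of Ehmt1 their r ran from 0.66 to 0.86.

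Other genes of H3K9 silencing were read from the same fit. Of 14 partners of the writers, among them the HUSH complex and proteins that bind the G9a complex, 1 was lower and 0 higher by limma (median log2 fold change -0.04). At an unadjusted p below 0.05, 4 were lower and 1 higher, and the exact test called 1 lower and 0 higher. Over all genes tested, 7.75% were lower and 6.22% higher by limma. The shares were 16.7% and 13.5% unadjusted, and 2.34% and 2.15% by the exact test. With tied embryos 1 partner was lower, and without title number 4 the count of partners was 0. The lower gene was Uhrf1, whose protein binds hemimethylated DNA and methylated H3K9, at -0.63 (SE 0.12, adjusted p = 0.00304). Setdb2, a relative of Setdb1, was at -0.23 (adjusted p = 0.0719) and was called without supplied replicate 4 or without withdrawn replicate 3, which made 2 lower genes. Setdb2 was also called with array weights, with the title number as a replicate block and after removal of the length and GC trend. In the last of these 2810474O19Rik (Resf1) was called higher. Zfp57, which guides TRIM28 to imprinted regions, was at -0.07 with a level of 4.90, near the low end of the table, where the lowest value was 2.82.

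Of 27 genes of heterochromatin assembly, 2 were higher and 0 lower by limma, with a median of 0.04. At an unadjusted p below 0.05, 8 were higher and 1 lower, or 9 of 27 where the shares over all genes were 13.5% and 16.7%, and the exact test called 2 higher and 0 lower. By limma 6.22% of all genes were higher and 7.75% lower, and by the exact test 2.15% and 2.34%. With tied embryos 2 of this list were higher, with averaged embryos 0. Hdac1, a histone deacetylase of several corepressor complexes, ran from 10.39 to 10.53 in supplied and from 10.59 to 10.89 in withdrawn embryos, with no overlap. Its log2 fold change was 0.29 (SE 0.06, adjusted p = 0.00657). H3f3a, one of the genes of the histone variant H3.3, ran from 9.61 to 9.74 in supplied and from 9.82 to 10.20 in withdrawn embryos (0.28, SE 0.07, adjusted p = 0.0120). Without supplied replicate 4 the higher genes were 4, with Incenp and Aurkb added, and Hells was lower. They were 1 without title number 1 (H3f3a) or with the somatic markers as a covariate (Hdac1), and 0 without title number 4. Over all genes 5.86%, 2.9% and 0.394% were called in these settings. With the length and GC trend removed they were 4, with Chd4 and Atrx added.

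Of 10 genes of H3K9 demethylases in the table, 1 was higher (Kdm3a, 0.25) and 2 were lower (Phf8, -0.42, and Phf2, -0.27), with a median of -0.02. With tied embryos Phf2 was not called, and with averaged embryos or the somatic covariate none of the list was. Over all genes 7.13%, 2.4% and 2.9% were called in these settings. The lower count was 1 without supplied replicate 5 or supplied replicate 6 and 0 without title number 1, and no gene of the list was called without title number 4. At an unadjusted p below 0.05 there were 3 higher and 2 lower, and the exact test called 1 higher and 0 lower. Over all genes tested, 6.22% were higher and 7.75% lower by limma. The shares were 13.5% and 16.7% unadjusted, and 2.15% and 2.34% by the exact test.

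Some germline genes are known to be derepressed in other cells when SETDB1, G9a or their partner repressors are lost. Of 8 such genes in the table, 6 were lower and 0 higher by limma, with a median of -0.43. With tied or with averaged embryos 3 of the 6 were called (Mael, Tex101 and Taf7l). The same counts were 7 lower and 0 higher at an unadjusted p below 0.05, and 2 lower and 0 higher by the exact test. Over all genes tested, 7.75% were lower and 6.22% higher by limma. The shares were 16.7% and 13.5% unadjusted, and 2.34% and 2.15% by the exact test. The list of 8 targets was written with knowledge that Dazl, Ddx4 and Mael were lower in these samples, so its count is not independent evidence. Taf7l, a germ cell TFIID subunit gene, ran from 6.81 to 8.22 in supplied and from 6.61 to 6.79 in withdrawn embryos, with no overlap (-0.70, SE 0.14, adjusted p = 0.00468). Tex101, a surface protein gene of germ cells, was at -0.49 (SE 0.11, adjusted p = 0.00867). Slc25a31, a germ cell ADP/ATP carrier gene, was at -0.44 (SE 0.14, adjusted p = 0.0407). Dazl was at -0.43 (SE 0.12, adjusted p = 0.0212) and Ddx4 at -0.34 (SE 0.11, adjusted p = 0.0362). The count of 6 was 3 without supplied replicate 5, supplied replicate 6, withdrawn replicate 4 or title number 1, and 2 (Mael and Taf7l) without title number 4. With the somatic markers as a covariate it was 2 (Mael and Dazl), where 2.9% of all genes were called.

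**Figure D5:**
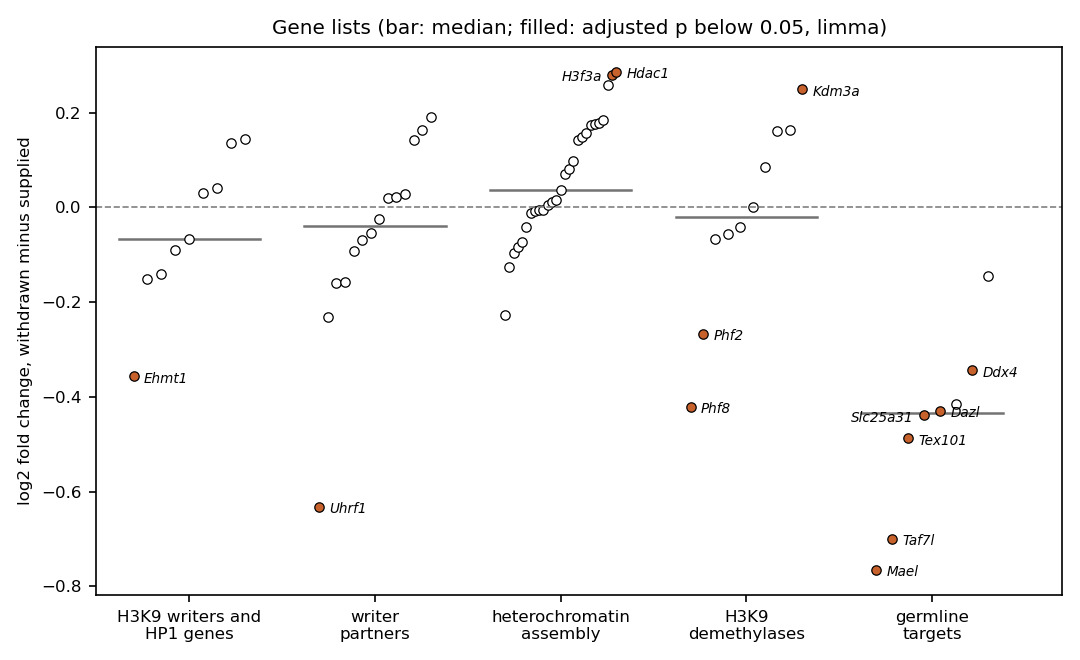
Log2 fold change, withdrawn minus supplied (vertical axis), of every gene tested in 5 lists (horizontal axis), with filled, named points where the limma adjusted p is below 0.05 and a bar at the median of each list. The 9 writer and HP1 genes have 1 filled point, Ehmt1, and the germline targets have 6 filled points of 8, all below 0.

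The promoter window of Mael is shown because Mael had the lowest value among these targets (-0.77, SE 0.13, adjusted p = 0.00209). It is from RefSeq, build GRCm38.p6, at chr1:166238695-166238994 on the minus strand. Capitals mark matches to CACGTG, an E-box that MAX and MGA can bind, and to TCCCGC, the core of E2F sites, each searched on both strands.
Mael: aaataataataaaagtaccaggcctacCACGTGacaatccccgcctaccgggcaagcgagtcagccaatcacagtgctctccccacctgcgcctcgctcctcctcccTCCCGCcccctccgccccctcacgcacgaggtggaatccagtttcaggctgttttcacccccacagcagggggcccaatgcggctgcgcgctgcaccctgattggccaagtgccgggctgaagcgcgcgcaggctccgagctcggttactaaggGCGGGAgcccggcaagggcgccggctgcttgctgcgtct
All 8 targets had a window. A match to CACGTG was in 5 of the 8, beside 7.15% of all 32851 windows, and a match to TCCCGC in 3, beside 19.98%. Both were in 3 targets, beside 1.99% of all windows. Among the 9 members, 2 genes had a window with CACGTG and 6 had one with TCCCGC. The 8 targets were chosen by hand as genes known to be repressed, and their first listed windows held from 17 to 38 CpGs. The median of all windows is 7, and both motifs contain a CG. The share over all windows is therefore not that of like promoters, and enrichment was not tested. A match is a run of letters, and binding was not measured here.

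Markers of supporting and mesenchymal cells of the gonad had low levels. All 10 supporting cell markers kept were negative, with 1, Emx2, called lower (-0.18, limma adjusted p = 0.0303), 5 lower at an unadjusted p below 0.05 and 0 by the exact test, and 0 of 10 lay above the median gene. All 6 mesenchymal markers kept were negative, with 0 called by limma, 4 at an unadjusted p below 0.05 and 0 called by the exact test. Over all genes tested, 7.75% were lower by limma, 16.7% at that unadjusted p and 2.34% by the exact test. Foxl2, which marks the supporting lineage of the ovary, was at 3.65 to 3.80 in all 12 embryos, near the lowest values of the table. The summed level of the supporting cell markers on the linear scale was 466 to 546 in supplied and 441 to 510 in withdrawn embryos. That of the mesenchymal markers was 202 to 309 and 202 to 232. Of 7 endothelial markers and 3 macrophage and blood markers kept, 0 were called by limma or by the exact test. Of the endothelial markers 4 were negative and 3 positive, and 1, Pecam1, lay above the median gene. Its mean was 11.18 in supplied and 11.38 in withdrawn embryos (0.20, limma adjusted p = 0.0789). The other endothelial markers kept were far lower, with group means from 3.48 (Flt1, withdrawn) to 5.28 (Cldn5, withdrawn). With the mean of these 16 supporting and mesenchymal markers as a covariate Ehmt1 was at -0.36 (adjusted p = 0.0457). In that setting 360 of all genes were called, or 2.9%, against 1737 without the covariate. All 16 markers were lower in withdrawn embryos, so the covariate was tied to diet. In bulk RNA, fewer cells of a type and less RNA per cell cannot be told apart.

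Of 10 germ cell markers, 5 were higher and 2 lower by limma, and the exact test called 1 higher and 0 lower. Over all genes tested, 6.22% were higher and 7.75% lower by limma, and 2.15% and 2.34% by the exact test. With tied embryos 2 of the markers were higher and 0 lower, and with averaged embryos none was called. The 2 lower ones, Ddx4 and Dazl, are also counted among the germline targets. Pou5f1, which encodes the Oct4 by which the cells were sorted, was at 0.45 (SE 0.09, limma adjusted p = 0.00505), and 9 of the 10 lay above the median gene. Their summed linear level was 36080 to 41407 in supplied and 35787 to 40045 in withdrawn embryos.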

How the data were processed

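Germ cells of 12 embryos, 6 per diet, were measured by RNA sequencing. The authors deposited normalized log2 expression values, 1 column per embryo. Per the labels' protocols, total RNA of sorted cells was extracted with a column kit, and a SMART-type kit served for the libraries. The submitters' processing notes name Trim Galore 0.4.0, FastQC, TopHat2 2.0.13, DESeq2 1.10.1 and build mm9. The sources used here do not name the annotation, the counting tool or the log2 transformation. Every value in a library was distinct, so reads could not be recovered, the depth stays unknown and count models were not applied. If low values were shrunk, their fold changes are understated.

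Genes with a mean of at least log2 of 10 (3.32) were kept, 12432 of 12516. Diets were compared with limma 3.58.1 in R 4.3.3, two-sided, with variances moderated along a trend and Benjamini-Hochberg adjustment over all genes kept. Single adjusted p values are from limma unless an exact test is named. Pairs of members were compared as log2 ratios by an exact permutation test, and correlations with 100000 permutations. Alternatives concerned the low-value filter, library scaling, variances, left-out embryos, a covariate and the test. One tied embryos sharing title number and diet through statmod 1.5.0. On simulated data for this comparison (12432 genes), limma recovered 40.0% of genes changed by 0.25 on the log2 scale, 94.5% of those changed by 0.5 and 100% of those changed by 1. False calls were 3.61%, 8.7% and 4.31% of all calls. The simulation drew independent normal errors and changed 200 genes, where 1737 were called in the data. Embryos sharing title number and diet had an estimated correlation of 0.27, so these rates may not hold for the data.

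The members and lists were chosen with earlier results of these data known. Named are all members, up to 5 called genes per list and direction by smallest p, Cbx3, Uhrf1, Setdb2 and Zfp57, and the 5 genes most correlated with the called member. Slc25a31 is named beyond this rule. Other examples were chosen after their values were seen. Lengths and GC content are from GENCODE M21 (GRCm38), which matched 99.0% of genes by symbol or synonym. Embryos are named as biological replicates in the series' design text. If embryos share a mother, the p values are too small.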

Additional observations from a re-analysis of the deposited data

Results flagged for a closer look

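Of 28 groups of 6 embryos examined for members and ratios, 3 held an embryo far from the other 5, by its gap to the nearest of them relative to the range of the group. About 1 group in 20 does so by chance. Suv39h1 was lowest in withdrawn replicate 5 at 10.04, where the group median was 10.32. Atf7ip was lowest in withdrawn replicate 6 at 11.07, where the group median was 11.25. The log2 ratio of Setdb1 to Atf7ip was highest in supplied replicate 5 at 0.24, where the group mean was 0.03.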

How the results depend on the processing

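Ehmt1 kept its direction in all 27 alternatives and its call in 26, with values from -0.40 to -0.29 and adjusted p values from 0.00193 to 0.0737. The count of lower members was 2 with quantile normalization, where Atf7ip was added, and 0 without title number 4, and higher members were 0 throughout. For lower writer partners the count was 2 with quantile normalization, 0 without title number 4 and 1 to 2 when 1 embryo was left out. For heterochromatin assembly the lower count was 1 with quantile normalization. When 1 embryo was left out it was 0 to 1, and the higher count was 2 to 4; without title number 1 the higher count was 1 and without title number 4 it was 0. For demethylases the lower count was 0 without title number 1 and 1 to 2 when 1 embryo was left out. Without title number 4 it was 0 in both directions, with a median of 0.044. For germline targets the lower count was 3 without title number 1, 2 without title number 4 and 3 to 7 when 1 embryo was left out. Further settings for the lists were added after seeing the data. There the lower count of germline targets was 3 with no variance trend, robust variances, or embryos tied or averaged, and 2 with the somatic covariate or the exact test. Lower writer partners were 2 with array weights, the replicate block or the length and GC trend removed, the last with 1 higher. Higher heterochromatin genes were 0 with averaged embryos, 1 with the covariate and 4 with the trend removed, and 1 was lower with the replicate block. Lower demethylases were 1 with tied embryos and 0 with averaged embryos, the exact test or the covariate, and higher ones 0 with averaged embryos or the covariate and 2 with the trend removed. The cause of these shifts was not tested. Signs turned, with no call, for Suv39h2 (-0.0021 without supplied replicate 4, and up to 0.078 with other embryos left out) and Cbx5 (-0.024 with quantile normalization, -0.041 with the somatic covariate, -0.0047 without supplied replicate 3, and up to 0.076 with other embryos left out). Leaving out 1 embryo gave -0.25 to -0.17 for the ratio of Ehmt1 to Ehmt2 and -0.27 to -0.17 for that of Setdb1 to Trim28. With pairs of embryos averaged or a title number left out, the smallest exact p is 0.0286 before adjustment over the 5 pairs, so a ratio passes only if several do. With the title number as a replicate block a ratio could not pass alone either. Whether title numbers pair embryos across diets was not settled. Deviations from group means had correlations of 0.27, -0.10, 0.18 and -0.17 for numbers 1 to 4. Between unequal numbers they ran from -0.36 to 0.30. Each number has only 1 or 2 embryos per diet. With the title number as a replicate block Ehmt1 was at -0.36 (adjusted p = 0.00570) and the member counts stayed at 1 and 0. There 2062 genes were called in all, against 1737 without the block. The count over all genes was 886 with tied embryos, 298 with averaged embryos and 360 with the somatic covariate. It was 729 without title number 1 and 49 without title number 4. Unknown depth limits all statements on small changes.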
